A study of Mus musculus with 4 samples.

Results

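The synaptic vesicle and release machinery was described here by 37 genes, taken by symbol from the 55471 genes counted in each library, and all 37 passed the filter on low counts. The members were listed by what their proteins do. Their proteins were divided by family. Of the 37, 16 belong to families that span the membrane of vesicles, and 19 are cytosolic or lie on the membrane surface. Snap25 and Stx1a, the SNAREs of the plasma membrane, were kept apart. Where each single protein resides was not measured. The question was how far the RNA of these classes differed between cuprizone-fed and mock mice, and whether vesicle membrane proteins and their cytosolic partners differed alike.

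The RNA came from ribosomes pulled down from brain, with 2 cuprizone and 2 mock libraries. Every mouse carried GFAP-Cre+/- and Rpl22HA/wt, so that ribosomes gained an HA tag in any cell in which Cre had been active, whether the group was fed cuprizone or not. The series' design text describes males aged 8 to 9 weeks, chow with 0.2% cuprizone by weight for the treated group, age-matched controls on normal chow, and corpus callosum, the white matter between the hemispheres, as the dissected tissue. The 4 libraries are labelled astrocytes and 3 weeks, whereas that text names collection at 5, 5.5 and 7 weeks, and this mismatch could not be settled. The promoter sets which cells carry the tag, and the labels do not say which GFAP-Cre line was used or whether 1 library came from 1 animal or from a pool. Cuprizone is a copper chelator that kills oligodendrocytes and strips myelin when fed.

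At a synapse, small vesicles are filled with transmitter, held near the release site by synapsins, and fused with the plasma membrane when calcium binds synaptotagmin. Fusion is driven by a bundle of SNARE proteins, VAMP on the vesicle with SNAP25 and syntaxin on the plasma membrane, which NSF and its SNAP adaptors pull apart afterwards. Dynamin, amphiphysin, endophilin and synaptojanin then retrieve the vesicle membrane. The machinery is best known from neurons, while relatives such as Vamp3 and Snap23 serve secretion in many other cell types. Synaptotagmins, synaptophysins and SV2 proteins enter the membrane of the endoplasmic reticulum while they are being made, whereas VAMPs and syntaxin carry their membrane anchor at the very end and are inserted after translation.

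The division into classes can be read in the coding sequences, which is why 6 are shown. For each protein the window of 19 residues with the highest mean hydropathy on the Kyte-Doolittle scale was found from the GENCODE M21 coding sequence on GRCm38. Its 57 coding bases are printed 5′ to 3′ on the coding strand, with capitals for every codon that has T in the middle, since those codons encode the hydrophobic residues phenylalanine, leucine, isoleucine, methionine and valine.
Syt1: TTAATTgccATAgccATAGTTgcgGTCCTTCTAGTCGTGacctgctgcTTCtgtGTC
Syp: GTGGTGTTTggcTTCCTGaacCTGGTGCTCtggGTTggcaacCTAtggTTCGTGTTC
Vamp2: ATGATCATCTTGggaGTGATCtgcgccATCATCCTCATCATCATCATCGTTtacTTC
Vamp1: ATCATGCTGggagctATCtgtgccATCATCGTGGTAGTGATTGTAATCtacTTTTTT
Syn1: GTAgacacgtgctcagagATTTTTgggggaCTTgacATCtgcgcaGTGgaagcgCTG
Synj1: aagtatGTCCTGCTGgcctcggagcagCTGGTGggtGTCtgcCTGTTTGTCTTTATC
The stretch of Syt1 lies at chr10:108642328-108642384 on the minus strand and encodes residues 60 to 78, with 12 of 19 codons in capitals. Those of Vamp2 (chr11:69089979-69090657, plus strand, across an intron) and Vamp1 (chr6:125219592-125220060, plus strand, across an intron) have 15 and 14 such codons and end 2 residues and 1 residue before the C terminus. That of Syp (chrX:7645197-7648610, plus strand, across an intron) has 13. The best window of Syn1 (chrX:20864794-20864850, minus strand) has 7, and that of Synj1 (chr16:90964531-90964587, minus strand) has 11.

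Peak hydropathy followed the division closely. A mean of 1.6 or more over 19 residues is the customary sign of a membrane span, and all 16 vesicle membrane proteins reached it, from 1.99 in Syp to 3.36 in Vamp2, with a median of 2.5. Of the 19 cytosolic proteins, only Synj1 did, at 1.74, and the others ran from 0.226 in Cplx2 upward, with a class median of 1.06. Synaptojanin is a soluble lipid phosphatase and was left in the cytosolic class. Stx1a, with a tail anchor, stood at 2.89, and Snap25, held to the membrane by lipids, at 0.568.

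Depth and cell makeup of the libraries bear on every value below. Totals ran from 21209517 to 23822620 counts, so that a gene with no count could still have had 3 counts, worth 0.126 to 0.141 CPM. CPM is a gene's count per 1000000 counts of its library throughout. These limits cover counting error only. RNA of several cell types was present: in order of cuprizone replicates 1 and 2 and mock replicates 1 and 2, 17 astrocyte markers summed to 0.873%, 1.01%, 1.42% and 1.39% of counts, 20 neuron genes to 1.35%, 1.29%, 1.22% and 1.35%, and 15 oligodendrocyte genes to 1.23%, 1.61%, 1.51% and 1.75%. The 12 microglia markers summed to 20.6 to 57.4 CPM, with 5, 2, 1 and 0 of them at 0, and the 9 endothelial markers to 5.13 to 17.7 CPM, with Cdh5 at 0 in every library. Cuprizone replicate 2 stood apart in cerebellar granule cell genes, whose 12 members summed to 1032 and 2312 CPM in the cuprizone and 655 and 820 CPM in the mock libraries, with 4 of the 12 at 0 in each mock library. Without Rbfox3, which neurons at large express, and Etv1, both left out after their values were seen, the other 10 summed to 149.5 and 1241 CPM against 71.55 and 59.12 CPM. Fewer cells of a type and less RNA per cell cannot be told apart in such data, and the part of these differences in the members' values was not tested.

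Snap25 had the highest mean CPM of all 55471 genes, although the libraries are labelled astrocytes. It encodes the plasma membrane SNARE with a pair of helices, lies on GRCm38 at chr2:136713453-136782428 (ENSMUSG00000027273), and had 9899.6 and 10008 CPM in the cuprizone and 8292 and 8297 CPM in the mock libraries. Both cuprizone libraries were higher. The log2 fold, cuprizone over mock, was 0.19 (SE 0.10, adjusted p = 0.499 by edgeR's quasi-likelihood test). Together the 37 members took 2.67% and 2.73% of counts in the cuprizone and 2.47% and 2.55% in the mock libraries. Per kilobase of annotated exon, Snap25 led with a mean of 1344 CPM per kb over the 4 libraries, before Rab3a with 662, Vamp2 with 469 and Sncb with 460.0. The lowest were Sv2c with 0.757 and Syn3 with 0.523 CPM per kb. Without regard to length, 29 of the 37 members had a mean of at least 100 CPM.

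**Figure D1:**
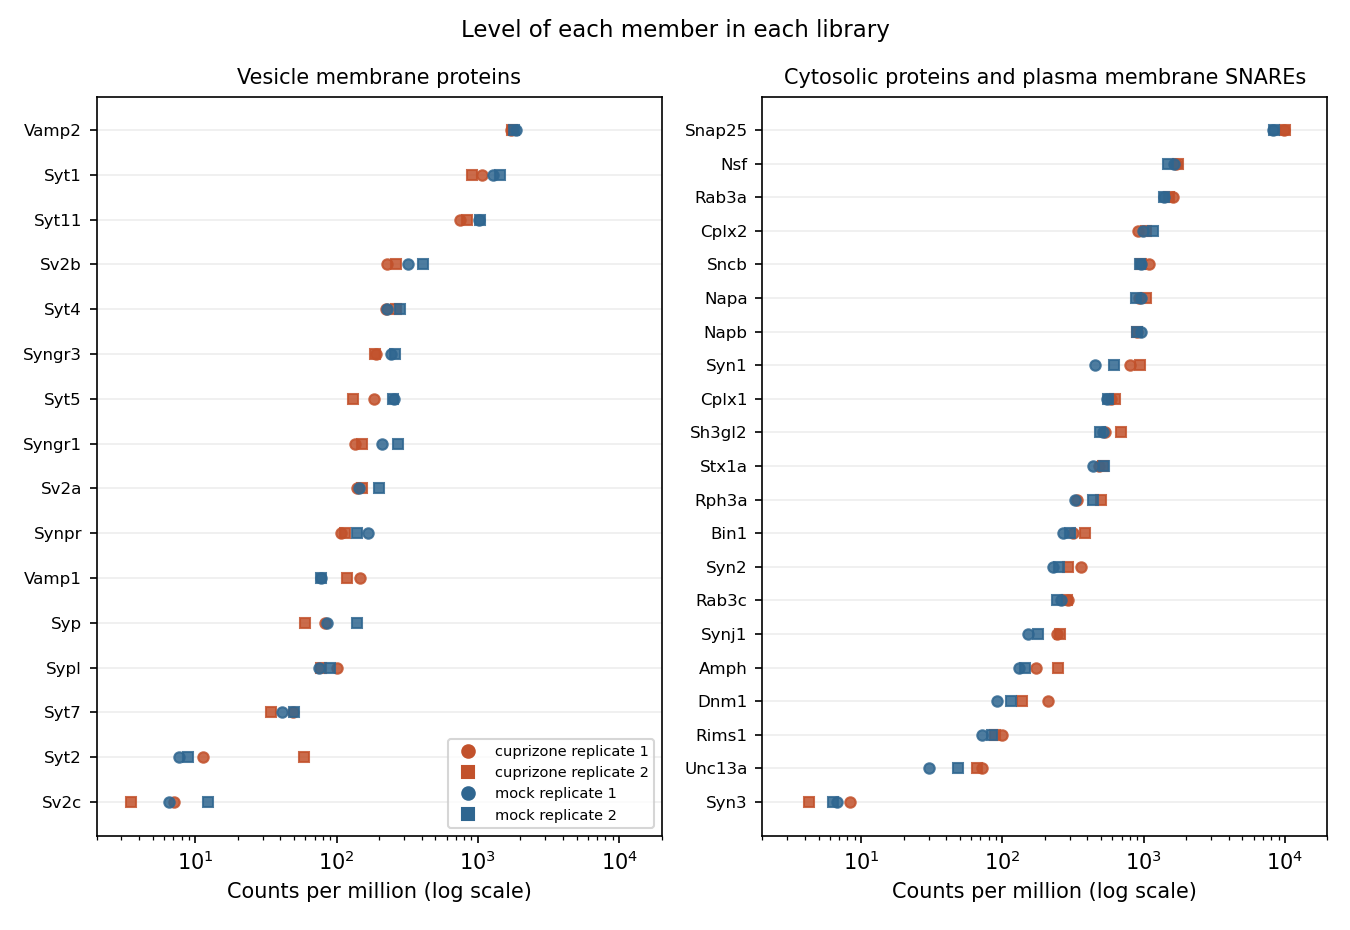
Level of each member in each library, in CPM on a log axis; each point is 1 library, colour gives the group and shape the replicate. Snap25 lies at 8292 CPM or more in every library, and 29 members have a mean of at least 100 CPM. The cuprizone points lie lower than the mock points in 9 of 16 vesicle membrane members, against 18.9% of all genes tested. They lie higher in 14 of 19 cytosolic members, against 25.7% of all genes tested.

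No member passed the test over all genes. The edgeR test, fitted to 15816 genes with an adjusted p threshold of 0.05, called 0 of the 37 members, against 0.0822% of all genes tested, and the members' adjusted p ran from 0.192 to 0.994. At an unadjusted p under 0.05 there were 7 members with higher and 8 with lower values in cuprizone, where 5.73% and 7.03% of all genes were. DESeq2 called 7 members, 3 higher (Syt2, Vamp1 and Syn1) and 4 lower (Syt1, Syt5, Syngr1 and Sv2b), where it called 4.52% of all genes, 1.67% higher and 2.85% lower, while limma-voom and edgeR with bias-adjusted dispersions called 0, against 0.297% and 0.322%. All p-values rest on the spread between 2 libraries a group, which the labels call biological replicates. In simulated libraries of this design, the edgeR test called 19% of genes changed 2-fold, so an uncalled member may still differ.

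The classes lay on opposite sides of the other genes. The 16 vesicle membrane members had a median log2 fold of -0.46, with 13 negative and 3 positive, and the 19 cytosolic members a median of 0.13, with 16 positive and 3 negative; the median of all genes tested was 0.00061. In 9 of the 16 membrane members both cuprizone libraries were lower than both mock libraries, where 18.9% of all genes were, and in 2 both were higher. In 14 of the 19 cytosolic members both cuprizone libraries were higher, where 25.7% of all genes were, and in 1 both were lower. Of tested coding genes with a peak hydropathy of 1.6 or more, 1497 of 4798 were lower in both. Below 1.6, 2720 of 8849 were higher in both, and 1548 of the 3768 with a coding sequence of 1500 bases or more. As sums, the membrane members took 0.514% and 0.511% of counts in the cuprizone and 0.601% and 0.648% in the mock libraries, and the cytosolic members 1.11% and 1.17% against 0.997% and 1.02%. The groups did not overlap in either sum, and the sums went opposite ways. The 4798 tested coding genes at or above 1.6 summed to 259987 and 257949.9 CPM in the cuprizone and 299861 and 317422 CPM in the mock libraries. Those below 1.6 summed to 723220 and 726284 CPM against 683215 and 666116 CPM. The members' sums thus went the same ways as those of coding genes as a whole. Whether the members' sums differed from these was not tested.

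The same split appeared library by library. Relative to each member's own mean over the 4 libraries on the log2 scale, the median membrane member stood at -0.13 and -0.18 in the cuprizone and 0.02 and 0.24 in the mock libraries. The median cytosolic member stood at 0.11 and 0.10 against -0.11 and -0.09. The membrane median minus the cytosolic median was -0.24 and -0.28 in cuprizone and 0.13 and 0.32 in mock libraries. In fitted log2 folds the difference between the class medians was -0.59. It was -0.58 without cuprizone replicate 2, the library with the most cerebellar RNA, and -0.55 to -0.63 over the 4 fits with 1 library left out. Cuprizone replicate 1 also held more granule cell RNA than the mock libraries, 149.5 against 71.55 and 59.12 CPM over 10 genes. Leaving out replicate 2 therefore does not remove that difference, and its part in the class medians was not tested.

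**Figure D2:**
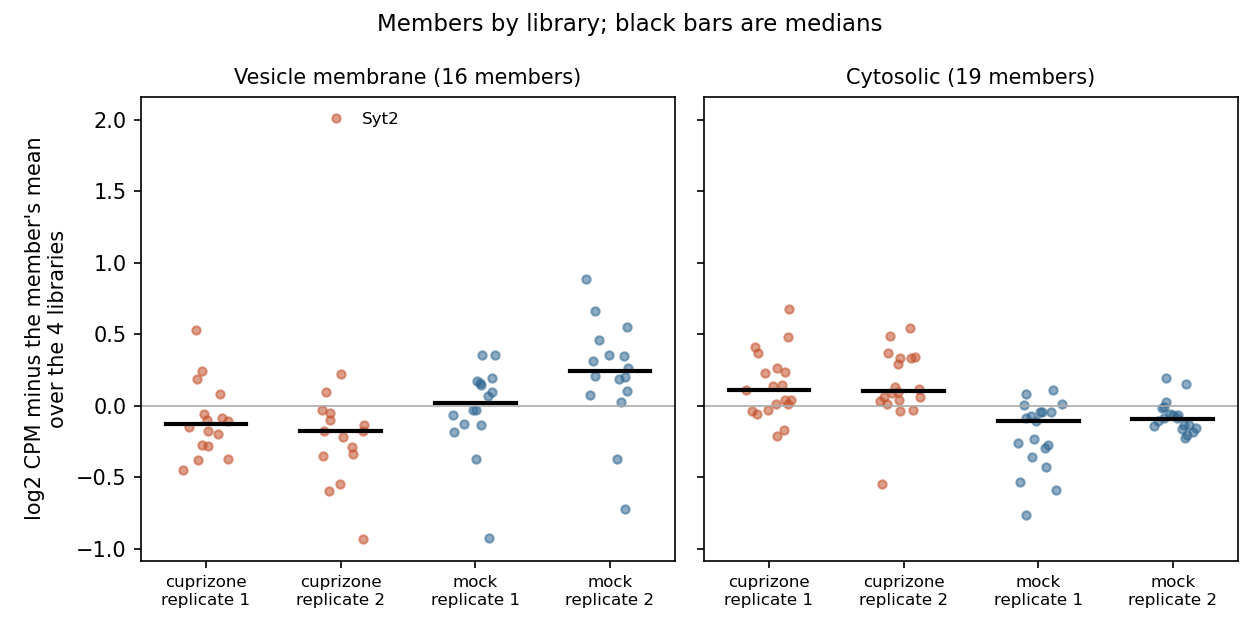
Each point is 1 member in 1 library, as log2 CPM minus that member's mean over the 4 libraries; black bars are class medians. The membrane medians are -0.13 and -0.18 in cuprizone and 0.02 and 0.24 in mock libraries, the cytosolic medians 0.11 and 0.10 against -0.11 and -0.09, and Syt2 in cuprizone replicate 2 lies far above the rest.

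Synaptotagmins are the calcium sensors of the vesicle. Syt1, the sensor of fast release in the forebrain (ENSMUSG00000035864, chr10:108497650-109010982), had 1075 and 904 CPM in the cuprizone and 1273 and 1431 CPM in the mock libraries. Its groups did not overlap, with a log2 fold of -0.52 (SE 0.14, edgeR adjusted p = 0.243). Syt5, another vesicle synaptotagmin, had 184 and 131 CPM against 253 and 252 CPM, a log2 fold of -0.75 (SE 0.20, edgeR adjusted p = 0.231). Syt11, a family member that does not bind calcium, had 748 and 844 CPM against 1017 and 1038 CPM, a log2 fold of -0.44 (SE 0.13, edgeR adjusted p = 0.268). In these 3 genes every cuprizone library lay below every mock library, as in 18.9% of all genes. The groups overlapped in Syt4, with 224 and 265 CPM against 226 and 282 CPM, and in Syt7, a slower calcium sensor, with 49.2 and 34.1 CPM against 41.3 and 49.9 CPM.

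Syt2 went the other way, through cuprizone replicate 2. This close relative of Syt1 serves fast release in hindbrain, cerebellar and parvalbumin neurons, and lies at chr1:134646677-134762593 (ENSMUSG00000026452). It had 11.3 and 59.1 CPM in the cuprizone and 7.69 and 8.86 CPM in the mock libraries, a log2 fold of 2.02 (SE 0.73, edgeR adjusted p = 0.331). Between the cuprizone replicates it differed 5.22-fold, the most of any member, where the median member differed 1.14-fold. Without cuprizone replicate 2 the log2 fold was 0.37, and without cuprizone replicate 1 it was 2.77. In each of these fits the lone cuprizone library was taken to vary as the mock libraries do. Over all alternatives the adjusted p of Syt2 ran from 0.0191 to 0.857. Pvalb, the calcium buffer of parvalbumin neurons, had 24.3 and 102 CPM against 15.2 and 17.7 CPM. The granule cell genes Gabra6 and Cbln3 had 11.8 and 214 CPM and 22.4 and 331 CPM in the cuprizone libraries and 0 in both mock libraries. All of these were highest in the library that set the Syt2 difference, and their part in it was not tested. Of the 9 listed granule cell genes tested apart from Rbfox3 and Etv1, 8 had positive log2 folds and 1 a negative one, -0.62.

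**Figure D3:**
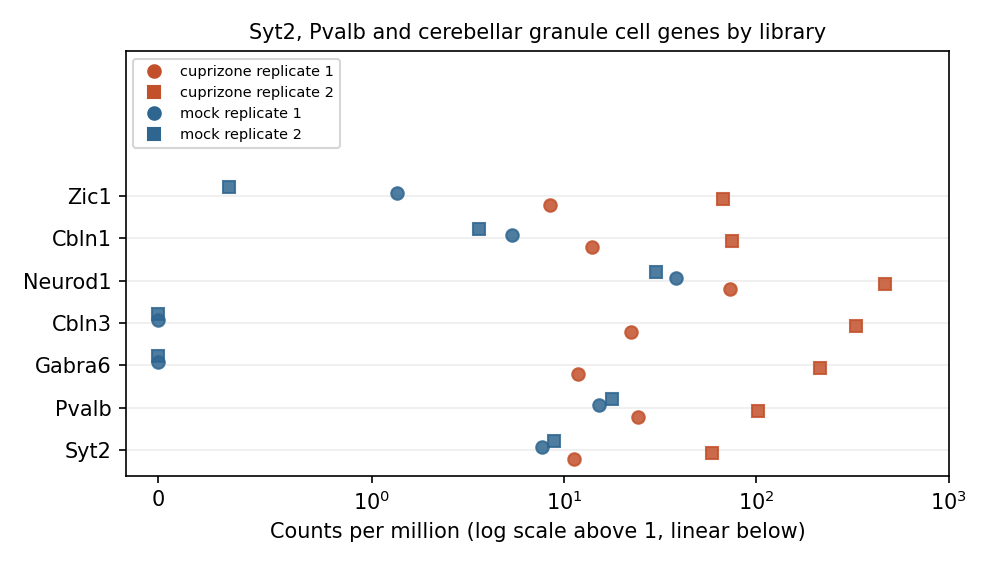
CPM of Syt2, of Pvalb and of 5 cerebellar granule cell genes in each library, on an axis that is logarithmic above 1 and linear below. The 5 were chosen after their values were seen, and 1 listed granule cell gene that was lower in both cuprizone libraries is not shown. Cuprizone replicate 2 is the highest library in every row, at 59.1 CPM for Syt2 and 331 CPM for Cbln3, and Gabra6 and Cbln3 are at 0 in both mock libraries.

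Synaptophysins and synaptogyrins are abundant vesicle proteins with several membrane spans, and Syp held 4 separate hydrophobic stretches at or above the hydropathy threshold. Of the 5 members of the family, 4 were lower in both cuprizone libraries, where 18.9% of all genes were, and 1497 of the 4798 tested coding genes at or above that threshold. Syngr1 (ENSMUSG00000022415, chr15:80091334-80119501) had 135 and 151 CPM in the cuprizone and 211 and 271 CPM in the mock libraries, a log2 fold of -0.82 (SE 0.18), and its edgeR adjusted p of 0.192 was the lowest of the 37. Syngr3 had 189 and 187 CPM against 242 and 260.2 CPM, and Synpr, found in some cell groups more than others, 107 and 115 CPM against 167 and 140.2 CPM. Syp itself had 82.8 and 60.2 CPM against 86.0 and 139 CPM, a log2 fold of -0.72 (SE 0.29, edgeR adjusted p = 0.369). Its groups were separated by only 82.8 against 86.0 CPM, and 16.8% of its exon bases are shared with an antisense gene, so its reads are less certain if strand was not used in counting. Sypl, the relative that most tissues express, overlapped between groups at 101 and 77.9 CPM against 75.2 and 90.0 CPM, with a log2 fold of 0.04 (SE 0.21, edgeR adjusted p = 0.975).

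SV2 proteins are transporter-like glycoproteins with many membrane spans. All 3 members had negative folds. Sv2b had 228 and 262 CPM in the cuprizone and 318 and 409 CPM in the mock libraries, a log2 fold of -0.64 (SE 0.18, edgeR adjusted p = 0.251), and its groups did not overlap. Sv2a overlapped, with 139 and 152 CPM against 144 and 201 CPM. Sv2c, low in these libraries, had 7.05 and 3.48 CPM against 6.51 and 12.3 CPM, a log2 fold of -0.91 (SE 0.58, edgeR adjusted p = 0.596), the most negative of the members but with overlapping groups.

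The tail-anchored SNAREs of the vesicle lay above the median of the membrane members. Vamp2, the main vesicle SNARE of the forebrain (ENSMUSG00000020894, chr11:69088490-69092384), had 1712 and 1746 CPM in the cuprizone and 1869 and 1814 CPM in the mock libraries, a log2 fold of -0.16 (SE 0.12, edgeR adjusted p = 0.648). Vamp1, its counterpart in hindbrain and motor circuits (ENSMUSG00000030337, chr6:125215551-125245964), had 146 and 118 CPM against 78.2 and 78.0 CPM. Both cuprizone libraries were higher, with a log2 fold of 0.69 (SE 0.18, edgeR adjusted p = 0.234). Unlike Syt2, Vamp1 was higher in cuprizone replicate 1 than in replicate 2, and its log2 fold stayed between 0.54 and 0.82 with any 1 library left out. Stx1a, the tail-anchored syntaxin of the plasma membrane, overlapped between groups at 481 and 519.5 CPM against 437 and 521 CPM, with a log2 fold of -0.01 (SE 0.15, edgeR adjusted p = 0.994). Without the VAMPs, the 14 vesicle members that enter the membrane during translation had a median log2 fold of -0.50, with 12 negative.

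**Figure D4:**
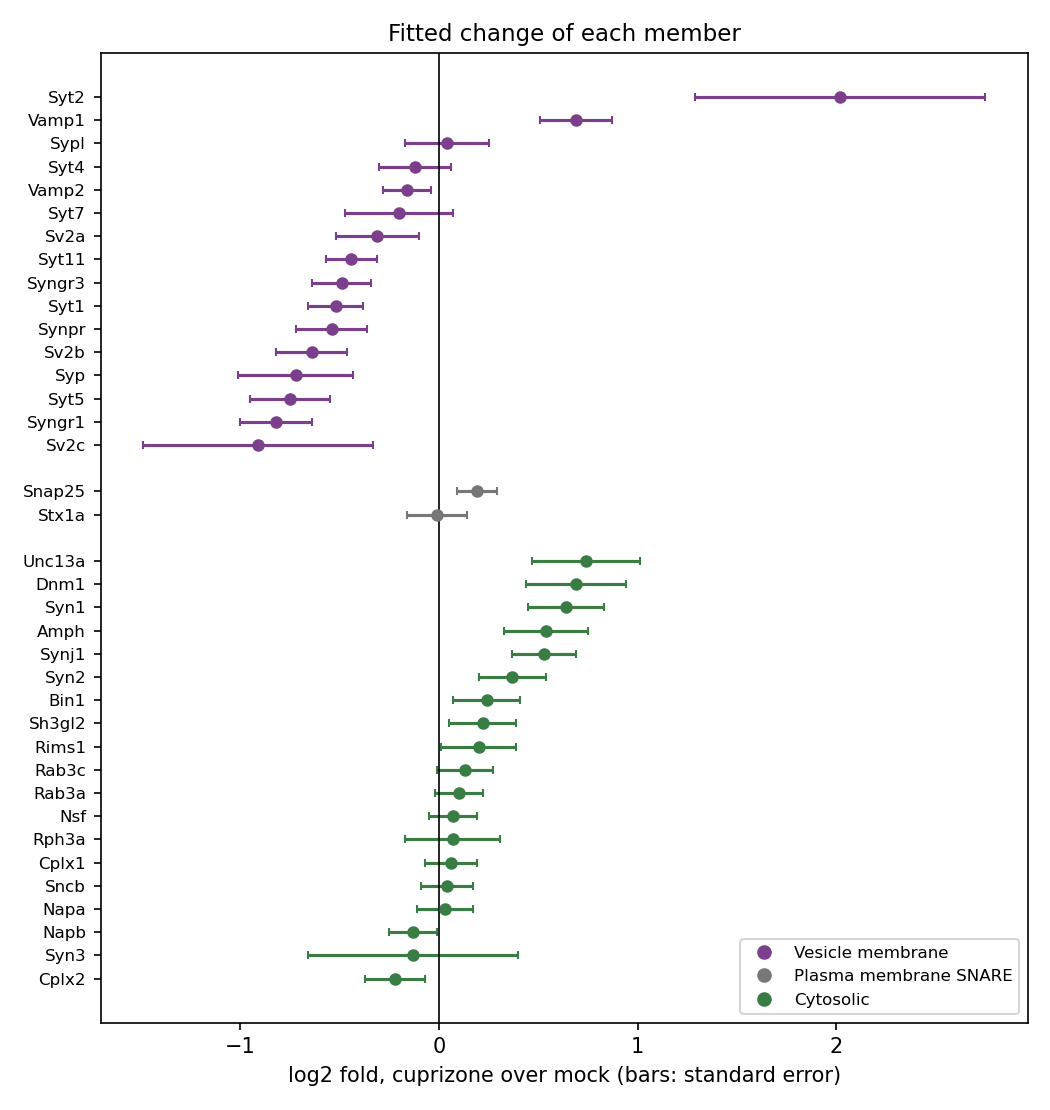
Fitted log2 fold of each member, cuprizone over mock, with its standard error as a bar, sorted within the 3 classes. Of the vesicle membrane members 13 of 16 lie below 0, of the cytosolic members 16 of 19 lie above it, and Syt2 and Vamp1 are the membrane members farthest above 0.

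Among cytosolic members, the synapsins tether vesicles to each other and to actin. Syn1 (ENSMUSG00000037217, chrX:20860511-20921004) had 798 and 949 CPM in the cuprizone and 449 and 617 CPM in the mock libraries, a log2 fold of 0.64 (SE 0.19, edgeR adjusted p = 0.268), with no overlap. Syn2 had 360.3 and 290.2 CPM against 227 and 253 CPM, also without overlap. Syn3, whose exons share 14.1% of bases with Timp3 on the other strand, had 8.29 and 4.28 CPM against 6.74 and 6.37 CPM, a log2 fold of -0.13 (SE 0.53, edgeR adjusted p = 0.969). Syn1 and Syt1, the soluble tether and the membrane sensor of the same vesicle, thus had folds of opposite sign, 0.64 and -0.52, in the same libraries.

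All 5 members that retrieve vesicle membrane were higher in both cuprizone libraries, where 25.7% of all genes were. Among tested coding genes below the hydropathy threshold, 2720 of 8849 were. Of those with a coding sequence of 1500 bases or more, 1548 of 3768 were. Dnm1 and Amph belong to that last set, whereas Bin1 and Sh3gl2 are shorter and Synj1 lies above the threshold. Dnm1, the dynamin that cuts the vesicle free, had 212 and 138 CPM in the cuprizone and 91.3 and 115 CPM in the mock libraries, a log2 fold of 0.69 (SE 0.25, edgeR adjusted p = 0.332). Amph, amphiphysin, had 174 and 247 CPM against 132 and 145 CPM, a log2 fold of 0.54 (SE 0.21, edgeR adjusted p = 0.369). Synj1, which strips the clathrin coat by removing phosphates from lipids, had 244 and 257 CPM against 151 and 179 CPM, a log2 fold of 0.53 (SE 0.16). Sh3gl2, endophilin, had 529.7 and 695 CPM against 512 and 494 CPM, and Bin1, an amphiphysin relative that oligodendrocytes also express, 318 and 386 CPM against 268 and 302 CPM. The last 2 had log2 folds of 0.22 (SE 0.17) and 0.24 (SE 0.17).

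The priming proteins of the release site were also higher in both cuprizone libraries, where 25.7% of all genes were. Both lie below the hydropathy threshold and have coding sequences of 1500 bases or more, and 1548 of 3768 such genes were higher. Unc13a, which readies vesicles for fusion, had 71.7 and 66.3 CPM in the cuprizone and 30.3 and 48.4 CPM in the mock libraries, a log2 fold of 0.74 (SE 0.27, edgeR adjusted p = 0.340), the most positive of the cytosolic members. Rims1, a scaffold of the active zone, had 100 and 88.0 CPM against 71.2 and 85.1 CPM, a log2 fold of 0.20 (SE 0.19). The vesicle GTPase Rab3a had 1615 and 1508 CPM against 1389 and 1385 CPM, and Rab3c 290.0 and 286 CPM against 261 and 242 CPM, log2 folds of 0.10 (SE 0.12) and 0.13 (SE 0.14). Their effector Rph3a overlapped between groups, with 339 and 495 CPM against 324 and 436 CPM.

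Members that act on the SNARE bundle itself had log2 folds from -0.22 to 0.07. Nsf, the ATPase that takes it apart, had 1691 and 1754 CPM in the cuprizone and 1646 and 1488 CPM in the mock libraries. Its adaptor Napa overlapped, at 921 and 1035 CPM against 950.0 and 876 CPM. Napb, the adaptor enriched in brain, had 893 and 894 CPM against 964 and 902 CPM, a log2 fold of -0.13 (SE 0.12, edgeR adjusted p = 0.753), and was the only cytosolic member lower in both cuprizone libraries. Complexins clamp and trigger the bundle: Cplx1 had 583 and 626 CPM against 549.6 and 555 CPM, and Cplx2 908 and 1031 CPM against 991 and 1168 CPM, a log2 fold of -0.22 (SE 0.15, edgeR adjusted p = 0.610). Sncb, beta-synuclein, had 1089 and 962 CPM against 954 and 942 CPM. The log2 folds of Nsf, Napa, Cplx1 and Sncb lay between 0.03 and 0.07, with SEs of 0.12 to 0.14.

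Within the cytosolic class the higher folds belonged to the longer proteins. The 10 members with a coding sequence of 1500 bases or more had a median log2 fold of 0.45, and the 9 shorter ones 0.06. Across the 19 genes, Spearman's rho of log2 fold with coding length was 0.70 and Pearson's r 0.67 on log2 length, given as a description, since genes of the same 4 libraries are not independent replicates. In the 16 membrane members rho was -0.18. Over all tested coding genes below the hydropathy threshold, rho was 0.31 (n = 8849), with medians of 0.25 for coding sequences of 1500 bases or more and -0.02 for shorter ones. Over the 4798 at or above it, rho was 0.13.

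**Figure D5:**
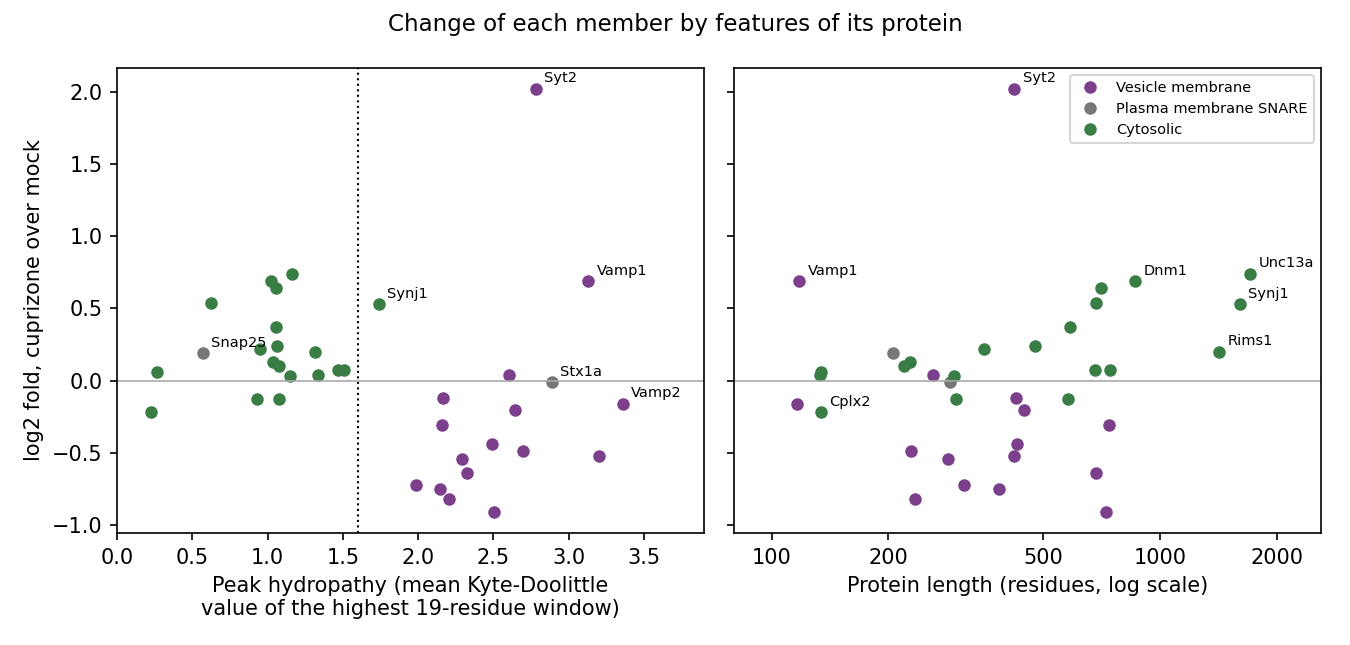
Log2 fold of each member against the peak hydropathy of its protein (left, dotted line at 1.6) and against protein length in residues on a log axis (right). Right of the dotted line most members lie below 0, with Syt2, Vamp1, Synj1 and Sypl above it, and among cytosolic members the folds are higher for longer proteins.

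Hydropathy likewise divided genes outside the machinery. Of 13647 tested coding genes, the 4798 with a peak of 1.6 or more, which include secreted proteins with a hydrophobic signal peptide, had a median log2 fold of -0.21, and 38.3% had positive folds. The 8849 genes below it had a median of 0.07, and 57.4% positive folds. The medians of the membrane and cytosolic members, -0.46 and 0.13, lay on the same sides of 0 as these, and a difference between members and such genes was not tested. The 253 tested genes with 1 hydrophobic stretch ending within 30 residues of the C terminus had a median of -0.13. The other 4545 genes at or above 1.6 had a median of -0.22. The VAMPs meet this rule, but it goes by position alone and also takes in surface glycoproteins such as Thy1. The median of the 253 is thus not that of tail-anchored proteins alone. The split seen in the vesicle machinery was thus shared in direction with coding genes as a whole.

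Other genes of the presynaptic terminal showed the same direction. They were listed with earlier results of these data known and come from the same 4 libraries, so they are not separate support. Coding genes at large had medians of -0.21 at or above the hydropathy threshold and 0.07 below it. Of 26 further vesicle and membrane genes, 25 could be tested, with a median log2 fold of -0.42 and 19 negative. The edgeR test called 0 of them, where it called 0.0822% of all genes. At an unadjusted p under 0.05, 9 were lower, where 7.03% of all genes were. DESeq2 called 7 lower, where it called 2.85% of all genes lower, and limma-voom called Atp6ap1 alone, where it called 0.297%. Atp6ap1 and Atp6ap2, accessory proteins of the proton pump that acidifies vesicles and lysosomes, had 291 and 315 CPM against 626 and 654 CPM, and 249.8 and 225 CPM against 382 and 438 CPM, with log2 folds of -1.15 (SE 0.14) and -0.86 (SE 0.15). Syt3, a further synaptotagmin, had a log2 fold of -0.87 (SE 0.34). Of 51 further cytosolic and peripheral genes, the median was 0.17 with 38 positive. Among tested coding genes below the hydropathy threshold, 57.4% had positive folds, and 70.5% of those with a coding sequence of 1500 bases or more. For the 51 genes, edgeR and limma-voom called 0, where they called 0.0822% and 0.297% of all genes. At an unadjusted p under 0.05, 10 were higher, where 5.73% of all genes were. DESeq2 called 5 higher, where it called 1.67% of all genes higher. Cadps, a priming factor of dense-core vesicles, had 157 and 122 CPM against 52.7 and 55.4 CPM, a log2 fold of 1.30 (SE 0.20, edgeR adjusted p = 0.119), and Dnm3, a dynamin, 1.10 (SE 0.21). Unc13c, a relative of Unc13a known from the cerebellum, had 14.3 and 32.9 CPM against 2.67 and 8.72 CPM, again highest in cuprizone replicate 2.

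SNAREs and syntaxin-binding proteins of other secretory routes, which glia use as well, were not divided by class. Of 15 tested genes, 9 had positive and 6 negative folds, with a median log2 fold of 0.04. The edgeR, DESeq2 and limma-voom fits called 0 of them, against 0.0822%, 4.52% and 0.297% of all genes. At an unadjusted p under 0.05, 1 was higher, Stx5a of the Golgi, where 5.73% of all genes were. Stx5a had 100.2 and 118 CPM in the cuprizone and 78.5 and 61.7 CPM in the mock libraries, a log2 fold of 0.57 (SE 0.21, edgeR adjusted p = 0.340). Vamp3, the cellubrevin of non-neuronal cells, overlapped at 60.3 and 43.2 CPM against 43.4 and 52.6 CPM, and Snap23, the relative of Snap25 in such cells, at 15.5 and 25.7 CPM against 18.6 and 23.0 CPM. Per kilobase of exon, Snap23 had a mean level of 4.82 CPM per kb and Vamp3 of 17.3, against 1344 for Snap25 and 469 for Vamp2. These 2 do not stand for the list. Its 15 genes ran from 1.82 CPM per kb in Stx2 to 289 in Snap47, with Stx7 at 67.6 and Vamp4 at 58.5.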

How the data were processed

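Ribosome-bound RNA of 2 cuprizone and 2 mock libraries was sequenced. The authors deposited a table of whole-number read counts per Ensembl gene for each library. Per the submitters' processing notes, FastQC 0.11.9, STAR 2.5.4b and featureCounts 1.6.0 were used with GRCm38. Neither strand setting nor annotation release is given in the sources used here, so antisense overlap could add reads to some genes.

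From these counts, CPM was computed on library totals. The comparison was run in R 4.3.3 with edgeR 4.0.16 (TMM scaling after filterByExpr on the groups, estimateDisp, glmQLFit with robust and legacy settings, glmQLFTest), fitted to all 15816 genes that passed the filter, with Benjamini-Hochberg adjustment over them and a threshold of 0.05. The script was tested on simulated counts with 2 libraries a group. There it called 19% of genes changed 2-fold and 62.9% of genes changed 4-fold, with 6 false calls among 15064 genes. Alternatives were other scalings and filters, DESeq2 1.42.0, limma-voom (limma 3.58.1), bias-adjusted dispersions, a replicate block, each library left out, and other class borders. Hydropathy came from 1 GENCODE M21 coding sequence per gene, the APPRIS principal one and then the longest.

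Members, lists and tests were chosen with earlier results of these data known. Named with full statistics were, in each class, up to 4 members with the largest folds each way, and Snap25, Stx1a, Syt1, Syp and Vamp2 always; statistics of further members are given as examples of their family. In the other lists, the named genes were called or had up to the 3 largest folds each way among those with an unadjusted p under 0.05 and a mean of at least 5 CPM. Vamp3, Vamp4, Snap23, Snap47, Stx2, Stx7, Pvalb, Malat1, Meg3, Rpl22 and the cerebellar genes were chosen after their values were seen.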

Additional observations from a re-analysis of the deposited data

How the results depend on the processing

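The membrane median minus the cytosolic median was -0.59 and stayed between -0.63 and -0.50 over 17 alternatives. The number of members called was 0, except 7 with DESeq2 and a range of 0 to 1 with 1 library left out. The cytosolic median of 0.13 was 0.20 on library totals alone, which moved the median of all genes to 0.07, and 0.16 with Stx1a among membrane and Snap25 among cytosolic members; over the fits that leave out 1 library it spanned 0.13 to 0.21, the highest without mock replicate 2, and the membrane median from -0.49 to -0.34. With the classes drawn by hydropathy alone, an alternative chosen after seeing the data, the medians were -0.37 and 0.13. Same-numbered libraries did not deviate together (correlation of deviations over 15816 genes -0.0124), so the numbers were not taken as pairs; a fit with the replicate block called 0 members and gave medians of -0.46 and 0.13, and over all genes 5 higher and 5 lower, against 5 and 8 without the block.

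Of 481 member values under alternatives, 457 kept direction and side of the threshold, 8 passed it, and 16 values of 10 members turned sign, all of members within 0.22 of 0 in the original fit. Stx1a had 0.06 on library totals alone. With 1 library left out, the log2 folds ranged from -0.13 to 0.15 for Stx1a, from -0.27 to 0.07 for Syt4, from -0.15 to 0.21 for Sypl, from -0.04 to 0.12 for Sncb, from -0.48 to 0.03 for Syt7, from -0.68 to 0.26 for Syn3, from -0.002 to 0.12 for Cplx1, from -0.07 to 0.12 for Napa, from -0.25 to 0.32 for Rph3a and from -0.01 to 0.40 for Sh3gl2; the cause was not tested. Calls over all genes depended on the method, with 13 in the original fit, 191 without a filter, 68 at a mean of at least 1 CPM, 51 with bias-adjusted dispersions, 47 with limma-voom, 715 with DESeq2, and 5 to 123 with 1 library left out. With 2 libraries a group, folds of members under 15 CPM, such as Sv2c and Syn3, had SEs above 0.5.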

Other observations

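Neuron genes outside the terminal also differed in direction among themselves. Of 20 genes of neuronal cell body and axon, 11 had positive and 9 negative folds, with a median log2 fold of 0.06. Thy1, a surface glycoprotein of neurons, had a log2 fold of -0.82 (SE 0.18, edgeR adjusted p = 0.185). Snhg11, a noncoding RNA of neurons, had a log2 fold of 3.13 and was called by edgeR (adjusted p = 0.0071). Of 17 astrocyte markers, 15 had negative folds with a median of -0.55, and edgeR called 0 of them. DESeq2 called 8 lower, where it called 2.85% of all genes lower, limma-voom called 3, where it called 0.297%, and 9 were lower at an unadjusted p under 0.05, where 7.03% of all genes were.

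The noncoding RNAs Malat1 and Meg3, which are kept mainly in the nucleus, had 499 and 552 CPM and 198 and 189 CPM in the cuprizone libraries, against 141 and 117 CPM and 39.1 and 37.4 CPM in the mock libraries. Rpl22, the gene that carries the ribosome tag, had 42.2 and 27.5 CPM against 40.6 and 40.1 CPM. The part of these differences in the members' values was not tested.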
